A study of Homo sapiens with 6 samples.

Results

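YAP1, WWTR1, TEAD1, CCN1, CCN2, ANKRD1, AMOTL2, AJUBA, LATS2 and CRIM1 are 10 genes of the Hippo pathway and its transcriptional output, given by name and looked up in a table of 25330 counted gene symbols. All 10 were counted and all 10 were among the 14199 genes tested. YAP1 and WWTR1 encode the co-activators and TEAD1 a factor that binds DNA with them, and the other 7 are known targets or regulators, so the set is wider than target genes alone. The libraries hold poly-A RNA of MDA-MB-231 cells, a long-established line of triple-negative breast cancer. The 3 control libraries carry the label CTRV2, whose meaning the sources used here do not give, and the 3 others the label RNASEH2A KO (column name RN1), a knockout of the catalytic subunit of RNase H2. All came from untreated cultures of 1 batch, with each library of a group from a different passage. The sources used here do not say if the knockout is 1 clone or a pool, and the p-values then reflect how passages vary.

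In the Hippo pathway the kinases STK3 and STK4 activate LATS1 and LATS2, which phosphorylate the co-activators YAP1 and TAZ (the product of WWTR1) and keep them out of the nucleus. Unphosphorylated YAP1 and TAZ bind TEAD factors on DNA and switch on genes for matrix proteins, growth regulators and inhibitors of the pathway itself. MDA-MB-231 is known to carry an inactivating mutation of NF2, an upstream activator of the LATS kinases, and is a common model of active YAP1 and TAZ. Their activity is set largely by phosphorylation and location, which RNA counts do not measure.

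TEAD factors bind the element GGAATG, which reads CATTCC on the other strand. The stretches below are shown because they hold every match to it, in capitals, in the 250 bases before 10 starts of 7 of the genes. They are from RefSeq on GRCh38.p14, CCN1, TEAD1 and CRIM1 were not searched here, and positions are counted back from the start, so that -1 is the base before it.
CCN2, chr6:131951452-131951551, minus strand: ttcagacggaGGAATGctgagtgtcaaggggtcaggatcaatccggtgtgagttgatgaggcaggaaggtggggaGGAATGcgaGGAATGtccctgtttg
ANKRD1, chr10:90921292-90921317, minus strand: caccaccaaaGGAATGgccctctcac
ANKRD1, chr10:90921200-90921225, minus strand: cactgagtctGGAATGaaaattcacc
YAP1, chr11:102110275-102110300, plus strand: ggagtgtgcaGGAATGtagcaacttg
AMOTL2, chr3:134374501-134374526, minus strand: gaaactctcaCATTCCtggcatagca
AJUBA, chr14:22976886-22976911, minus strand: gaagttggctGGAATGaagccaaagc
CCN2 has 3 matches, at -169, -104 and -95, and ANKRD1 has 2, at -220 and -128. The matches of AMOTL2 and AJUBA lie before the second of their 2 listed starts and within annotated exons, as does the match of ANKRD1 at -128. WWTR1 and LATS2 had no match in these windows. Of 34943 windows of the same length, 11.9% held at least 1 match, 0.93% at least 2 and 0.0801% at least 3. A match is a description of the letters and no evidence of binding.

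Library totals ran from 25419877 to 31596286 counts, and the 10 genes had between 2018 and 23576 counts in each library. The Poisson counting error of 1 library at those counts was 0.0099 to 0.03 on the log2 scale in controls, below the SD between control libraries for all but AMOTL2 (0.0189 against an SD of 0.0152). Levels are CPM, a gene's count scaled to a common library size with TMM factors, and fold changes are log2 of knockout over control from edgeR, with p-values adjusted over all 14199 tested genes. Gene coordinates are from GENCODE 29, on the GRCh38 build. RNASEH2A itself does not check the labels: its counts were 10, 6 and 15 in controls and 7, 8 and 16 in the libraries labelled knockout, so every direction below rests on the labels. Of 10 tested markers of the line's basal type, among them VIM at 735 ± 27.2 and 721 ± 38.5 CPM (SD, n = 3), 1 rose (PLAU, log2 fold change 0.67) and 1 fell (ITGB1, -0.21), and their sums overlapped, at 8191 to 8821 CPM in controls and 7950 to 8634 in knockouts. Summed luminal markers did not overlap, at 1613 to 1688 CPM in controls and 1463 to 1551 in knockouts. Of 8 tested luminal markers 3 fell (SPDEF, -2.34, AGR2, -2.55, and KRT18, -0.28), KRT8 was at 871 ± 19.7 and 823 ± 27.1 CPM, and ESR1 had no count. Summed fibroblast markers were at 49.3 to 54.5 CPM in controls and 46.2 to 93.2 in knockouts. The summed leukocyte markers were at 62.2 to 65.7 CPM in controls and 193.6 to 203.7 in knockouts over 5 counted genes, and both tested genes rose, LAPTM5 from 61.7 ± 2.14 to 175 ± 11.5 CPM and LCP1 from 2.02 ± 1.30 to 22.7 ± 14.2. PTPRC, which defines leukocytes, was at 0.194 ± 0.0495 CPM in controls and at 0 in knockouts, and the part of all these markers in the results below was not tested. In bulk RNA, fewer cells of a type and less RNA per cell cannot be told apart.

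Transcripts of these 10 Hippo effectors, regulators and targets differed little between the groups. Of the 10 genes 1, AMOTL2, passed an adjusted p of 0.05, and it rose. That is 1 in 10 beside 12.1% of all tested genes, 5.88% higher and 6.22% lower, so the share of calls was near the background. The median log2 fold change was -0.01, against 0.0035 over all tested genes. The 95% interval of the fold change lay inside 1.5-fold in either direction for 10 of 10 genes, as it did for 63.5% of all tested genes. All tested genes include genes with few counts, whose intervals are wider, so this difference in shares also reflects precision. Left out in turn, single libraries gave between 0 and 4 calls among the 10. There were 0 without control replicate 1, 2 or 3 or knockout replicate 2 or 3. In those fits 7.31, 4.48, 3.79, 10 and 3.61% of all tested genes were called. There were 4 without knockout replicate 1, where 23.8% of all tested genes were called.

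**Figure D1:**
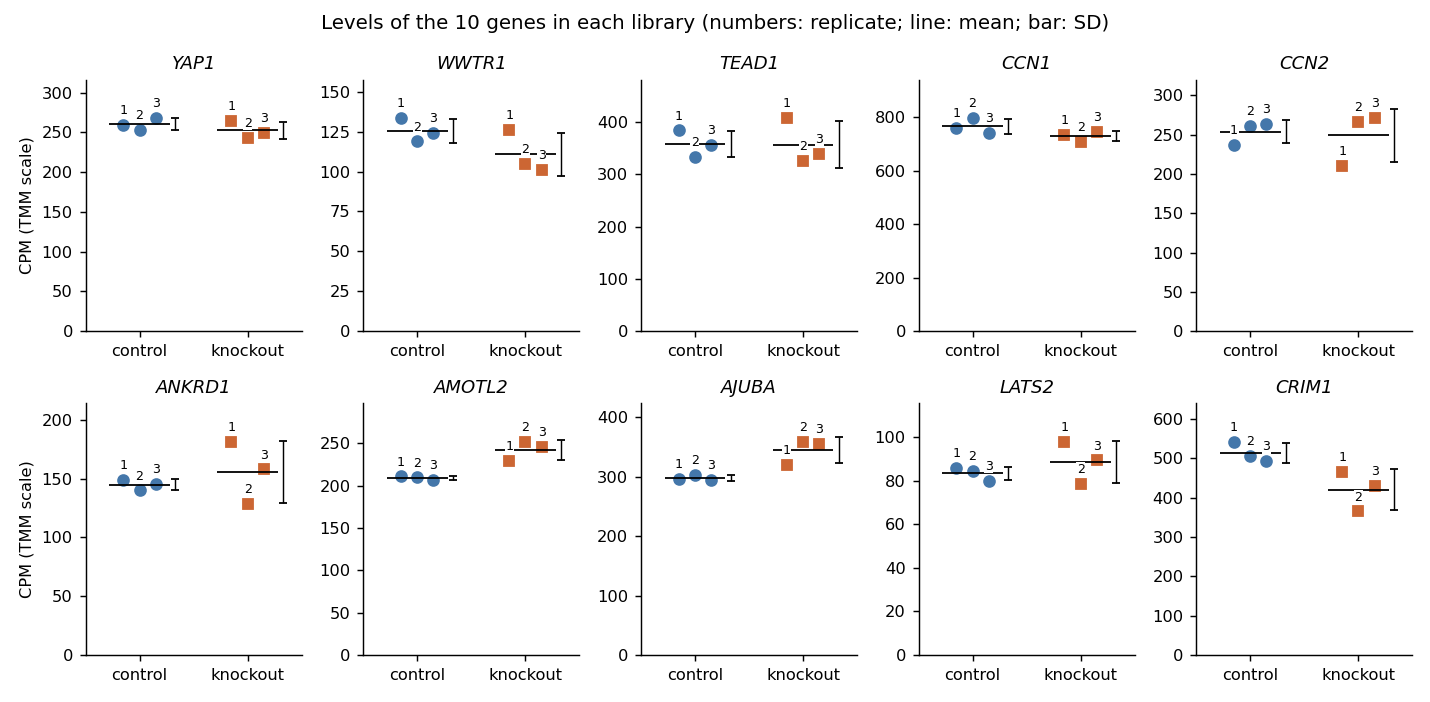
Level of each gene in CPM on the TMM scale (y axis from 0) in the 3 control and 3 knockout libraries (x axis), with the replicate number above each point, the mean as a line and the SD as a bar. The groups overlap for 7 of the 10 genes. All 3 knockout values lie above the controls for AMOTL2 and AJUBA and below them for CRIM1.

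YAP1, the pathway's main co-activator (chromosome 11, 102110461 to 102233423, plus strand), was at 259.7, 253 and 268 CPM in the control libraries and at 265, 243 and 249.8 CPM in the knockouts. The ranges overlapped, with knockout replicate 1 inside the control range. Its log2 fold change was -0.04 ± 0.06 SE (adjusted p = 0.693), with a 95% interval of 0.884-fold to 1.066-fold.

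WWTR1, which encodes the YAP1 paralog TAZ (chromosome 3, 149517235 to 149736714, minus strand), was at 133.5, 119 and 124 CPM in controls and 126, 105 and 101 in knockouts. Knockout replicates 2 and 3 lay under every control, and replicate 1 among them. The log2 fold change was -0.18 ± 0.09 SE (adjusted p = 0.24). Without knockout replicate 1 it was -0.28 (adjusted p = 0.00895), a call that was made in 1 of its 16 alternatives. Over these the adjusted p ran from 0.00895 to 0.603, apart from glmTreat, which tests against 1.5-fold and gave 1. Per kilobase of annotated exons, a scale that allows genes to be compared, YAP1 stood at 41.3 ± 1.20 RPKM and WWTR1 at 14.9 ± 0.884 in controls (SD, n = 3). YAP1 was thus the more abundant of the pair, and the ratio within a library was 2.78 ± 0.156 in controls and 3.07 ± 0.253 in knockouts, with overlapping values.

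TEAD1, the DNA-binding partner (chromosome 11, 12674591 to 12944483, plus strand), was at 384, 334 and 355 CPM in controls and 407, 325 and 338 in knockouts. Its log2 fold change was -0.0038 ± 0.09 SE (adjusted p = 0.984), with an interval of 0.865-fold to 1.15-fold. Among its paralogs TEAD3 rose, from 81.2, 77.2 and 75.7 CPM to 104, 100.2 and 104.5. All 3 knockout values lay above the controls, and the log2 fold change was 0.40 ± 0.06 SE (adjusted p = 0.00476). TEAD2 went from 25.1 ± 1.58 to 20.4 ± 2.47 CPM (log2 fold change -0.30, adjusted p = 0.108) and TEAD4 from 26.0 ± 1.12 to 21.98 ± 3.14 (-0.24, adjusted p = 0.191), and neither was called. Of the VGLL proteins, which compete with YAP1 and TAZ for TEADs, VGLL4 was at 24.9 ± 1.44 and 29.1 ± 3.90 CPM (0.22, adjusted p = 0.223), and VGLL3 at 10.0 ± 2.56 and 9.95 ± 2.33. TEAD3 was the single call among the 8 tested genes of the list of YAP1, TAZ, TEAD and VGLL genes, or 12.5%.

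**Figure D2:**
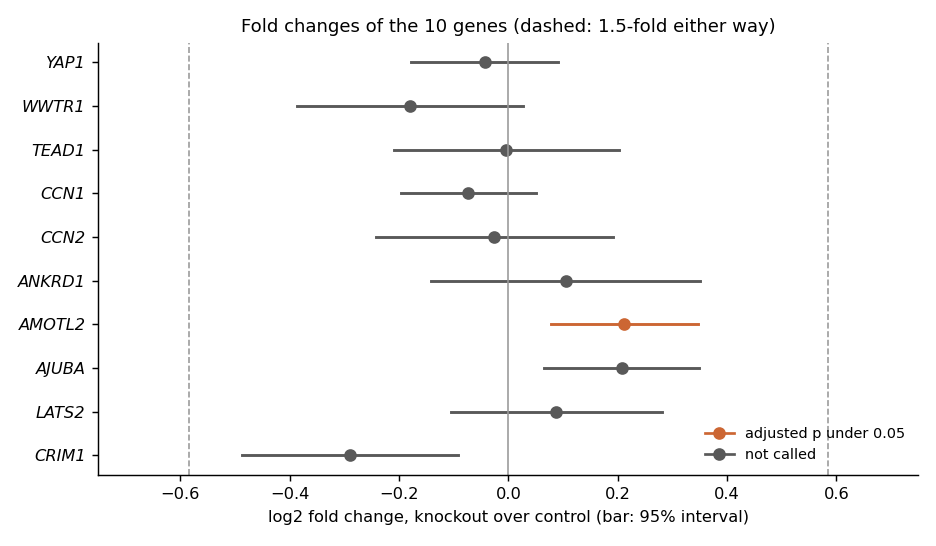
Log2 fold change of each gene, knockout over control (x axis), with its 95% interval as a bar and 1.5-fold in either direction as dashed lines. The intervals of AMOTL2, AJUBA and CRIM1 exclude 0 before adjustment, AMOTL2 alone has an adjusted p under 0.05, and none of the 10 intervals reaches 1.5-fold.

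The only call among the 10 was in a gene that feeds back on the pathway. AMOTL2, an angiomotin that holds YAP1 at junctions and is also a YAP1 target (chromosome 3, 134355874 to 134375479, minus strand), was at 211, 209.8 and 207 CPM in controls and 229, 252 and 246 in knockouts. Every knockout library was above every control, as for 16.1% of tested genes. The controls lay close together, with an SD of 2.20 CPM that is below their counting error. The gene rose by 0.21 ± 0.06 SE on the log2 scale, or 1.16-fold (adjusted p = 0.0494). The call ended without control replicate 1, 2 or 3 (adjusted p = 0.104, 0.175 and 0.196) or knockout replicate 2 or 3 (0.109 and 0.174). Over the 16 alternatives the adjusted p ran from 0.00376 to 0.196, apart from glmTreat, which tests against 1.5-fold and gave 1. The direction was the same in all 16. Its paralog AMOTL1 was at 210.1 ± 11.7 and 191.7 ± 9.92 CPM (log2 fold change -0.13, adjusted p = 0.242). AMOT was at 0.167 ± 0.0319 CPM in controls and 0 in knockouts, too few counts to test.

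AJUBA, a LIM protein that binds and restrains LATS kinases (chromosome 14, 22971174 to 22982642, minus strand), was at 297, 304 and 295 CPM in controls and 319, 359 and 356 in knockouts. The groups did not overlap, and knockout replicate 1 was the lowest of its group. The log2 fold change was 0.21 ± 0.06 SE, about as large as that of AMOTL2, but the adjusted p of 0.0637 missed the threshold. It was called in 5 of 16 alternatives, among them without knockout replicate 1 (0.26, adjusted p = 0.00249). Over the 16 the adjusted p ran from 0.00249 to 0.97, apart from glmTreat, which tests against 1.5-fold and gave 1. The related LIM genes LIMD1 (0.26 ± 0.10 SE, adjusted p = 0.123) and WTIP (0.27 ± 0.09 SE, adjusted p = 0.0936) had positive values that were not called either.

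LATS2, the kinase that phosphorylates YAP1 and is itself a target (chromosome 13, 20973032 to 21061547, minus strand), was at 85.8, 84.6 and 80.1 CPM in controls and 97.95, 78.8 and 89.4 in knockouts. Knockout values stood on both sides of the controls. Its log2 fold change was 0.09 ± 0.09 SE (adjusted p = 0.555), and that of LATS1 was -0.20 ± 0.10 SE (adjusted p = 0.242).

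Neither of the matricellular targets CCN1 and CCN2 was called. CCN1, a secreted integrin ligand (chromosome 1, 85580761 to 85583962, plus strand), was at 761, 798 and 744 CPM in controls and 734, 708 and 745 in knockouts. It had the highest level of the 10 per length, 313 ± 11.2 RPKM in controls (SD, n = 3), and its log2 fold change was -0.07 ± 0.06 SE (adjusted p = 0.428). CCN2, its relative with the 3 TEAD elements shown above (chromosome 6, 131948176 to 131951373, minus strand), was at 237, 261 and 263 CPM in controls and 211, 266 and 271 in knockouts. Knockout replicate 1 was below all controls while the other 2 were above them, and the log2 fold change was -0.03 ± 0.10 SE (adjusted p = 0.8925). Without that library it was 0.08 (adjusted p = 0.339). Of the other CCN genes CCN3 was at 5.23 ± 1.04 and 4.02 ± 1.37 CPM (adjusted p = 0.363), CCN5 and CCN6 were below the count filter, and CCN4 was not analysed here.

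ANKRD1, a nuclear ankyrin-repeat protein used as a YAP1 reporter (chromosome 10, 90912096 to 90921276, minus strand), was at 149, 139.9 and 146 CPM in controls and 181, 128.5 and 158 in knockouts. Its knockout libraries spread wider than any other gene of the set on the log2 scale, with an SD of 0.25 against 0.05 in controls. The log2 fold change was 0.10 ± 0.11 SE (adjusted p = 0.583), with an interval of 0.907-fold to 1.275-fold. Without knockout replicate 1 it was -0.02 (adjusted p = 0.899).

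CRIM1, a transmembrane protein that binds bone morphogenetic proteins (chromosome 2, 36355926 to 36551135, plus strand), was at 542, 505.5 and 493 CPM in controls and 466, 365 and 429.9 in knockouts. All 3 knockout values lay below the controls, as for 17.4% of tested genes. The log2 fold change was -0.29 ± 0.09 SE, or 0.818-fold, and the adjusted p of 0.0626 missed the threshold. It was called in 4 of 16 alternatives, among them without knockout replicate 1 (-0.37, adjusted p = 0.00304). Over the 16 the adjusted p ran from 0.00304 to 0.168, apart from glmTreat, which tests against 1.5-fold and gave 1. Values of the 3 and 3 libraries did not overlap for 3 of the 10 genes, beside 33.5% of all tested genes.

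Spread was larger in knockouts than in controls for most of these genes. The SD of log2 CPM was larger in knockouts than in controls for 9 of 10, CCN1 being the exception, and 65.6% of all tested genes had a larger SD in knockouts. The median SD of the 10 was 0.052 in controls and 0.165 in knockouts, against 0.105 and 0.15 over all tested genes. The knockout medians were thus close, and it was the controls of the 10 that lay nearer together. All tested genes include genes with few counts, which are less precise. Knockout replicate 1 was the highest of its group for 6 genes (YAP1, WWTR1, TEAD1, ANKRD1, LATS2 and CRIM1) and the lowest for 3 (CCN2, AMOTL2 and AJUBA), as it was one or the other for 81.2% of tested genes. It thus lay on the side of the controls for AMOTL2, AJUBA, CRIM1 and WWTR1, the genes called without it. Control replicate 1 was likewise the highest control for WWTR1, TEAD1, ANKRD1, LATS2 and CRIM1 and the lowest for CCN2. For AMOTL2 it was the highest, and for YAP1, CCN1 and AJUBA it lay between the others. Over all genes it differed from control replicates 2 and 3 by a chi-square of 11.4 and 10.2 per degree of freedom, and those from each other by 2.45. A source shared by the replicate 1 libraries was not tested.

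**Figure D3:**
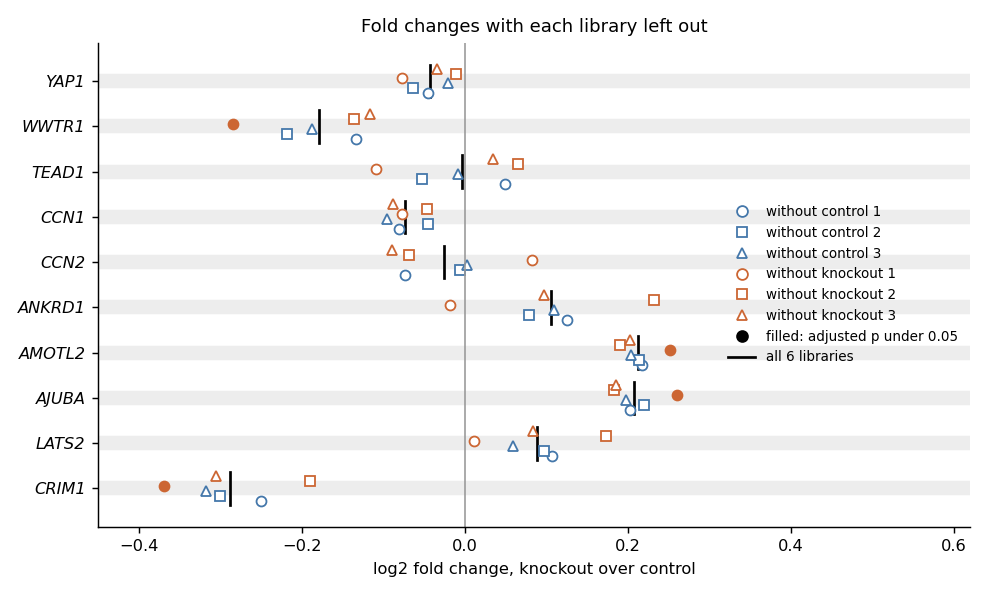
Log2 fold change of each gene, knockout over control (x axis), with all 6 libraries (line) and with each library left out (symbols, filled where the adjusted p was under 0.05). Filled symbols appear for AMOTL2, AJUBA, CRIM1 and WWTR1, each time without knockout replicate 1.

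The wider pathway was read from lists of its genes. Of 23 tested genes of the kinase core and its activators 2 rose, 2 fell and 19 were not called (17.4% called, median log2 fold change 0.05). FRMD6, a FERM-domain activator of the pathway, rose from 280.5, 272 and 269 CPM to 333, 323 and 319.9 (0.25 ± 0.06 SE, adjusted p = 0.0192). TAOK3, a kinase that can phosphorylate STK3 and STK4, rose from 52.1 ± 4.99 to 68.3 ± 5.63 CPM (0.39 ± 0.09 SE, adjusted p = 0.0255). The kinase TNIK, of the MAP4K family, fell from 20.6 ± 1.82 to 13.7 ± 3.16 CPM (-0.59 ± 0.16 SE, adjusted p = 0.0374). WWC3, a scaffold for LATS kinases, fell from 238.5 ± 12.99 to 192.6 ± 22.6 (-0.31 ± 0.09 SE, adjusted p = 0.0495). FRMD6 and TAOK3 were each called in 11 of 15 alternatives, TNIK in 9 and WWC3 in 7. The call of WWC3 ended with library size only, with genes under a mean of 1 CPM left out and with glmTreat. It also ended without any single library but knockout replicate 1. STK3 and STK4, named for their role after their values were seen, were not called (0.21, adjusted p = 0.123, and 0.16, adjusted p = 0.102). The count of 4 went to 0 without control replicate 2 or 3 or knockout replicate 3, to 2 without control replicate 1 and to 7 without knockout replicate 1, where between 3.61 and 7.31% and, in the last, 23.8% of all tested genes were called.

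Of 13 tested LIM and STRIPAK genes, which restrain the kinases, 0 were called by edgeR and 3 had an unadjusted p under 0.05 (AJUBA, LIMD1 and WTIP). Of the 13, DESeq2 called 1, beside 9.43% of all genes in that fit. With edgeR 1 was called with library size only, 1 with no filter on low counts and 3 without knockout replicate 1. The shares of all genes called in those fits were 12, 10.1 and 23.8%. Of 19 tested angiomotin, polarity and junction genes AMOTL2 alone was called, or 5.26%. The atypical cadherin FAT4 was at 159.9 ± 15.7 and 131.5 ± 13.6 CPM (log2 fold change -0.28, adjusted p = 0.0841), and the polarity protein PARD3 at 80.8 ± 4.51 and 72.3 ± 2.36 (-0.16, adjusted p = 0.1735).

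In a list of 22 genes known as YAP1 and TEAD targets across cancers, which includes 6 of the 10, all were tested, 1 rose (AMOTL2), 2 fell and 19 were not called. The share called was 13.6% and the median log2 fold change -0.01. The largest change was in F3, the coagulation initiator tissue factor, at 432, 439 and 429 CPM in controls and 249, 243 and 231 in knockouts. The groups stood far apart, and F3 fell by 0.85 ± 0.06 SE on the log2 scale (adjusted p = 9.56e-05), a call made in 15 of 15 alternatives. TGFB2, a secreted growth factor, fell from 159, 151.5 and 149.8 CPM to 128, 95.2 and 111 (-0.46 ± 0.10 SE, adjusted p = 0.0171). The median of the 22 genes in each library, as log2 CPM minus the control mean, ran from -0.02 to 0.04 in controls and was -0.04, -0.15 and -0.01 in knockouts, so only knockout replicate 2 lay clearly below the controls. With knockout replicate 1 left out 9 of the 22 were called, beside 23.8% of all tested genes. Without control replicate 1, 2 or 3 or knockout replicate 3, 1 was called, beside 3.61 to 7.31% of all tested genes. Of the 22, DESeq2 called 6, beside 9.43% of all genes in that fit. With edgeR 7 were called with no filter on low counts and 10 with the replicate block, beside 10.1 and 21.8%. Limma-voom and limma on the deposited log2 CPM called 2 each, beside 12 and 11.5%, and glmTreat against 1.5-fold called 1, beside 1.08%.

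F3 differs from CCN2 in the letters before its start. Its 250 bases held no GGAATG and 2 matches to the AP-1 element TGANTCA, shown in capitals.
F3, chr1:94541953-94541992, minus strand: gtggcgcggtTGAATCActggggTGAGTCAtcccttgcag
Of the 34943 windows 6.59% held at least 1 AP-1 match and 0.404% at least 2. Among the 7 matched genes of the set ANKRD1 alone had one, at -195. AP-1 factors often bind beside TEADs. Among the listed targets outside the 10, F3 alone was searched, and a part of AP-1 in its fall was not tested. Of 10 tested AP-1 subunits 9 were not called and 1, JUND, fell. JUND went from 164.9, 165.1 and 155 CPM to 144, 90.9 and 105 (-0.51 ± 0.14 SE, adjusted p = 0.0454). The call ended with library size scaling alone, with genes under a mean of 1 CPM left out and with glmTreat against 1.5-fold. It also ended without any single library but knockout replicate 1. Of 17 tested targets and cofactors of SRF and MRTF, an actin-sensitive pathway that shares CCN1 and CCN2 as targets, 1 rose and 1 fell. ACTA2, smooth muscle actin, rose from 1.09 ± 0.274 to 2.68 ± 0.363 CPM (1.30 ± 0.27 SE, adjusted p = 0.0138), a low level in both groups, and TPM1, a tropomyosin, fell from 77.9 ± 5.15 to 62.7 ± 3.92 (-0.31 ± 0.08 SE, adjusted p = 0.0313). ACTA2 was called in 13 of 15 alternatives and TPM1 in 9 of 15. The call of TPM1 ended with glmTreat and without any single library but knockout replicate 1.

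**Figure D4:**
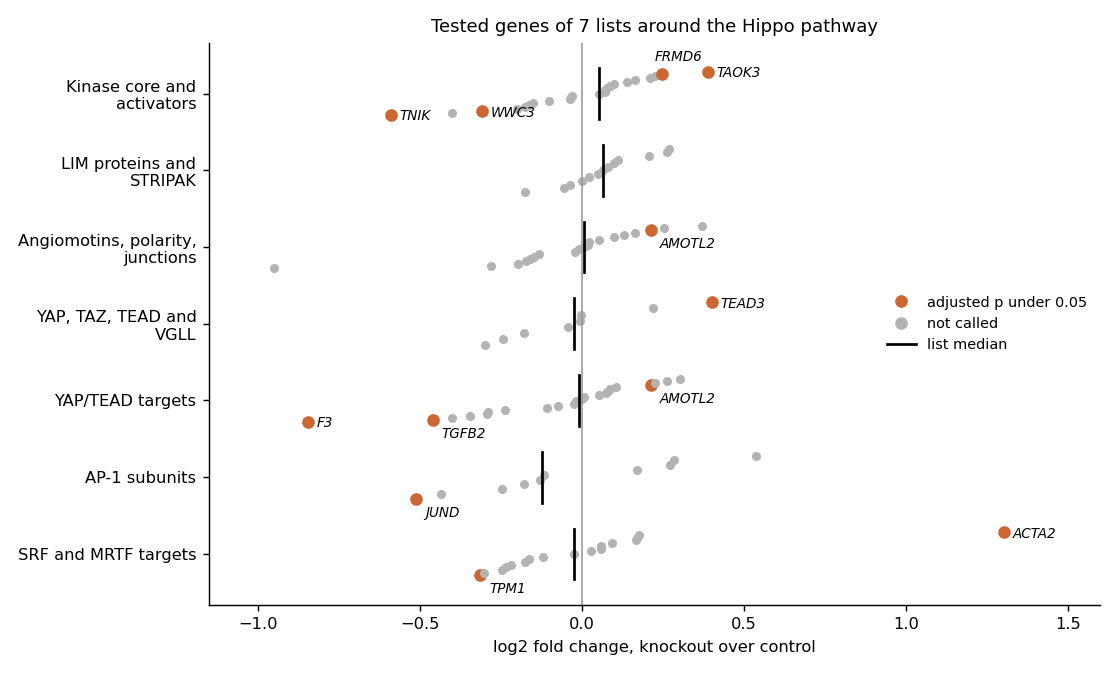
Log2 fold change, knockout over control (x axis), of every tested gene in 7 lists of the pathway and its partners (y axis), with called genes named and coloured and each list's median as a black line. List medians lie between -0.12 and 0.07, and called genes stand on both sides of 0.

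Over all these lists without the 10 genes, 4 of 99 tested genes rose and 6 fell, or 10.1% called beside 12.1% of all tested genes.

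Several chromosomal stretches have shared shifts in these libraries, so each gene was set beside the tested genes around it, up to 20 on each side. AJUBA lies in such a stretch: of its 40 neighbours, between 21200079 and 24125242 on chromosome 14, 35 had a positive log2 fold change, 11 were called higher and 1 lower. Their median was 0.21, and AJUBA minus that median was -0.01 (adjusted p = 0.97 in a fit with the median subtracted). Medians beyond 0.2 in size surrounded 10.2% of tested genes. AMOTL2 had 40 neighbours, 16 of them with a positive value, at a median of -0.07, and the difference was 0.28 (adjusted p = 0.0232). CRIM1 had neighbours at -0.02 and a difference of -0.27 (adjusted p = 0.0985).

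The neighbours of CCN1 and CCN2 were lower, at -0.16 and -0.12, so both genes stood above them, by 0.09 and 0.10, without a call (adjusted p = 0.389 and 0.591). With 10 neighbours on each side CCN1 stood 0.09 above them, while the difference of CCN2 turned to -0.0084. Of the 10 other list genes called, 5 kept their call with the neighbour median subtracted and 5 lost it. The share of all called genes that keep their call is not given here, so 5 of 10 has no background to be read against. The median enters the fit as a fixed value, so the adjusted p-values for these differences leave out its own uncertainty. TEAD3 kept its call beside neighbours at 0.11 (difference 0.29, adjusted p = 0.0253), and F3 beside neighbours at -0.29 (difference -0.55, adjusted p = 0.000701). TAOK3 (0.40, adjusted p = 0.0344), ACTA2 (1.30, adjusted p = 0.0197) and TPM1 (-0.34, adjusted p = 0.0331) kept theirs too. TGFB2, with neighbours at -0.29, did not (difference -0.17, adjusted p = 0.336), nor did FRMD6 (0.16, adjusted p = 0.126), WWC3 (-0.21, adjusted p = 0.185), TNIK (-0.53, adjusted p = 0.0751) or JUND (-0.27, adjusted p = 0.289).

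**Figure D5:**
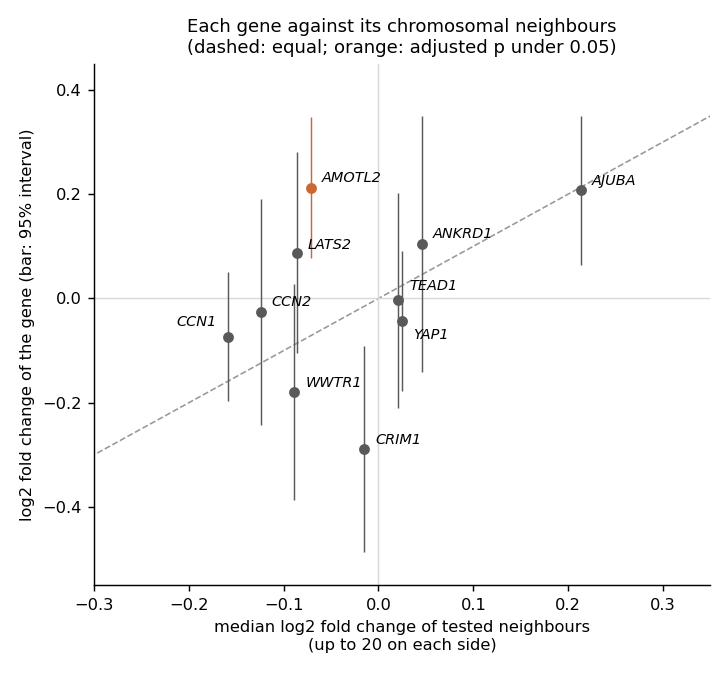
Log2 fold change of each of the 10 genes with its 95% interval (y axis) against the median log2 fold change of its tested chromosomal neighbours (x axis), with equality as a dashed line. AJUBA lies on the line at 0.21, while AMOTL2 lies above it and CRIM1 below it.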

How the data were processed

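Poly-A, strand-specific mRNA libraries were made from MDA-MB-231 grown with 10% serum, from RNA with an integrity number of at least 7.0, per the labels' protocols. STAR (version 2), FastQC and GRCh38 are named in the submitters' processing notes. How reads were assigned to genes, with which annotation and strand setting, the sources used here do not give. If strand was not used, reads of antisense genes that overlap YAP1, WWTR1, CCN2 and CRIM1 exons (2.49 to 9.97% of exon bases) cannot be told apart. Raw counts per gene symbol were deposited by the authors. A log2 CPM table deposited by the authors, with a prior count and filter not given, served 1 alternative.

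Within a group, pairs of libraries differed by a chi-square of 2.45 to 34.2 per degree of freedom, so all were kept as separate samples. Counts were filtered with filterByExpr, scaled by TMM and tested with edgeR 4.0.16 (quasi-likelihood F test, R 4.3.3), with Benjamini-Hochberg adjustment over 14199 genes and a threshold of 0.05. SEs are the fold change over the root of F, and 95% intervals use the fit's degrees of freedom and are not adjusted. RPKM uses all exon bases of GENCODE 29, where 25119 of 25330 symbols matched. Code was tested on simulated data. Alternatives used DESeq2 1.42.0, limma 3.58.1, other scalings and filters, glmTreat, a replicate block, each library left out, and neighbour medians. The 10 genes and the lists were chosen with earlier results of these data known. Named genes are the 10, up to 6 called genes per list or 2 where none was, and fixed paralogs.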

Additional observations from a re-analysis of the deposited data

How the results depend on the processing

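Counts of called genes moved most. Over all genes 1718 were called, 153 with glmTreat against 1.5-fold, 3099 with the replicate block, and 524 to 3430 with 1 library left out. As shares of the genes in each fit, these were 12.1, 1.08, 21.8 and 3.61 to 23.8%. The share was 9.43% with DESeq2, 10.1% with no filter and 12% with library size only. It was 12% with limma-voom and 11.5% with limma on the deposited log2 CPM. Counts among the 10 genes and the lists below are to be read beside these shares. Among the 10 genes 1 was called, 3 with DESeq2, 3 with no filter on low counts, 3 with the replicate block (AJUBA, AMOTL2 and CRIM1, with 3 of the 13 LIM and STRIPAK genes), 2 with library size only, and 0 with limma-voom, with glmTreat and with limma on the deposited log2 CPM, against 0 to 4 with 1 library left out. In the lists without these genes 10 were called, 17 with no filter, 27 with the replicate block, 1 with glmTreat, and 2 to 30 with 1 library left out. Equal replicate numbers are not stated to pair samples. Deviations of same-numbered libraries correlated at 0.32, 0.14 and 0.09, and not every library correlated best with its own number. Control replicate 1 correlated at -0.24 and -0.15 with knockout replicates 2 and 3. Knockout replicate 1 correlated at -0.18 with control replicates 2 and 3. Among replicates 2 and 3, control replicate 2 correlated at 0.139 and 0.0915 with knockout replicates 2 and 3, and control replicate 3 at 0.141 and 0.0855. A pairing of the samples was not tested. Directions near 0 turned: TEAD1 was 0.0099 with library size only, 0.0069 with no filter, and from -0.109 to 0.0651 with 1 library left out. With 1 library left out CCN2 ran from -0.0891 to 0.0827 and ANKRD1 from -0.0179 to 0.232. With the neighbour median subtracted CCN1 was 0.0858, CCN2 0.0985 and AJUBA -0.0058. With 10 neighbours on each side in place of 20, 3 differences turned: YAP1 from -0.068 to 0.0142, TEAD1 from -0.0247 to 0.0572 and CCN2 from 0.0985 to -0.0084. AMOTL2 had an adjusted p of 0.0507 in limma-voom and 0.0503 on the deposited log2 CPM. The cause of these shifts was not tested. Leaving out a library also leaves fewer samples, and calls over all genes went to 3430 without knockout replicate 1 and to 524 without knockout replicate 3. The values of the 10 genes rest on 2018 counts or more in each library. Genes with few counts are less precise, such as ACTA2 (SE 0.27), and AMOT was below the filter.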

Other observations

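The genes whose levels followed CCN1, CCN2 and YAP1 most closely over the 6 libraries are given as a description, since 6 points that share 2 groups and their depth give high correlations for many genes. For CCN1 they were PEMT (Pearson r = 0.9749), WDR83 (0.971) and SMAP1 (0.963), and 9 tested genes had an r above 0.95. For CCN2 they were TMEM109 (0.997), MLX (0.9945) and MFSD14B (0.993), among 153 genes above 0.95. For YAP1 they were CEP162 (0.9901), USP25 (0.987) and BISPR (0.978), among 17. None of these 9 genes was called between the groups, and none is in the lists used here.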
